A study of Mus musculus with 12 samples.

Results

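Obstructive and immune injury of the wild-type (WT) mouse kidney were set against each other at the level of noncoding and putative noncoding RNA: obstruction of 1 ureter (unilateral ureteral obstruction, UUO) and a glomerulonephritis (GN) raised with antibody to the glomerular basement membrane (anti-GBM). The libraries were chosen by their source labels, which gave 2 WT UUO libraries and 2 WT anti-GBM libraries, 4 of the 12 in the series. All mice were C57BL/6J. The UUO kidneys were taken 5 days after ligation of the left ureter, under ketamine and xylazine, from groups of 8 mice of both genders weighing 22 to 25 g. For the anti-GBM model the labels describe priming with sheep IgG given in complete Freund's adjuvant, then sheep anti-mouse GBM immunoglobulin at 60 μg per g of body weight 5 days later, and kidneys of day 10; the wording leaves unclear which injection started the GN. Other groups serve as reference: 2 WT normal (untreated) libraries, and the same pair of models in Smad3 knockout (KO) mice, with 2 libraries each, which share no library with the WT contrast. Sham-operated mice are mentioned in the protocol, but no library carries that label, and ages and the sex of each animal are not given. Day of harvest, surgery, immunisation with adjuvant and disease model all change together between both WT groups and cannot be told apart.

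In UUO, blocked urine flow stretches and kills tubular cells, and the space between tubules fills with inflammatory cells, fibroblasts and matrix. In anti-GBM disease, antibody and complement on the capillary wall of the glomerulus draw in leukocytes, with proteinuria, crescents and a later injury of tubules. Smad3 carries the signal of TGF-β, the main profibrotic cytokine of both diseases, to the nucleus. Of the 42452 transcripts counted here, 31600 are predicted ones with no database match. The matched ones are mainly cDNAs, regions of conserved structure and long noncoding RNA entries. Fewer match a repeat or a known RNA element, such as a structured stretch of an mRNA's untranslated region. A transcript named after an element measures the RNA that holds it.

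The 4 libraries held between 4595261 and 7342937 uniquely assigned reads. WT UUO 1 stood apart: reads covered 0.447 of the length that randomly placed reads would cover, against 0.911 in WT UUO 2 and 0.823 and 0.879 in the anti-GBM libraries. The log2 CPM (counts per 1000000 reads, scaled by TMM) of both UUO libraries correlated with r = 0.831 over the 24816 transcripts tested, less than WT UUO 2 with either anti-GBM library (0.924 and 0.906) and less than both anti-GBM libraries with each other (0.941). The most abundant transcript, ncRNA_aligned_3554, took 1.95% of the reads in WT UUO 1, 19.2% in WT UUO 2, and 18.0% and 23.4% in the anti-GBM libraries. Of 28 protein-coding markers of kidney and immune cell types, 2 were present by name, as elements of the vimentin and Spi1 mRNAs, so neither the kidney identity nor the cell makeup could be checked with defining markers. In bulk tissue, fewer cells of a type and less RNA per cell cannot be told apart.

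Few transcripts separated the models beyond the spread between libraries, in both directions. By edgeR's quasi-likelihood test, 15 transcripts rose in UUO relative to anti-GBM and 9 fell, at a Benjamini-Hochberg adjusted p under 0.05. These 24 are 0.0967% of the transcripts tested, 0.0604% higher and 0.0363% lower. At an unadjusted p under 0.05 there were 1433 (5.77%), 744 higher and 689 lower. The median log2 fold change of all transcripts tested was -0.01. Of the 15 that rose, 13 matched a database entry and 2 were predicted transcripts with no match; of the 9 that fell, 7 matched and 2 did not. With 2 libraries against 2, a permutation test cannot give a p below 0.3333, so the edgeR p-values draw on a spread estimated from all 12 libraries, which may in part be technical.

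**Figure D1:**
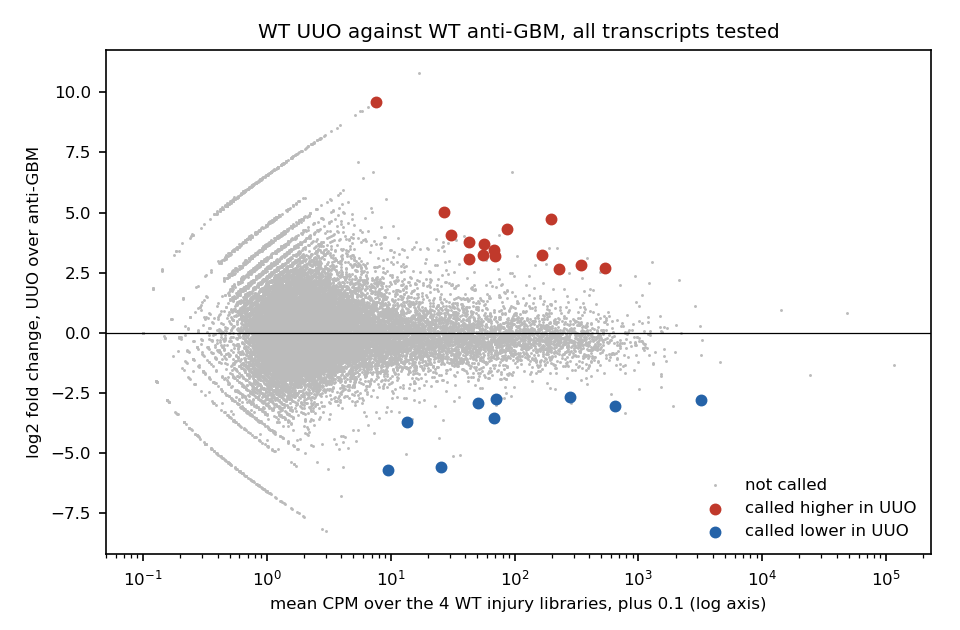
Each point is 1 of the 24816 transcripts tested; the x axis is the mean CPM over the 4 WT injury libraries plus 0.1 (log axis) and the y axis the log2 fold change of UUO over anti-GBM. The 15 transcripts called higher (red) and the 9 called lower (blue) lie 2.64 or more log2 units from 0, most of them at 10 CPM or more.

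The count depends on single libraries, and so do most of the 24 calls. Only ncRNA_aligned_2048 and ncRNA_aligned_4910 were called without each of the 12 libraries in turn. Fits that leave out libraries rest 1 or more groups on a lone library. The balance of directions also turned: there were 9 higher and 1 lower without WT UUO 1, 10 and 16 without WT UUO 2, 1 and 4 without WT anti-GBM 1, and 1 and 12 without WT anti-GBM 2. Without either WT normal library there were 4 and 4, without KO UUO 1 there were 39 and 30, and without KO UUO 2 there were 44 and 36. Without all 3 libraries of breadth under 0.5 (WT UUO 1, KO UUO 1 and KO anti-GBM 1) there were 320 calls, 166 higher and 154 lower, and 23 of the 24 were among them.

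The clearest difference was in ncRNA_aligned_2048, a transcript of 11264 bases whose match is the noncoding mouse cDNA AK032794. Its CPM was 275 and 481 in the UUO libraries, 14.5 and 13.6 in the anti-GBM libraries, and 23.5 and 24.1 in WT normal. The UUO libraries lay far above all others, and the anti-GBM libraries lay below normal. The log2 fold change of UUO over anti-GBM was 4.75 ± 0.52 (SE), a fold of 26.8, with an edgeR adjusted p of 9.04e-05. The call held without each of the 12 libraries in turn, with adjusted p between 6.79e-06 and 0.0139. Reads covered 87.0% and 99.9% of its length in UUO, and 49.7% and 49.3% in anti-GBM.

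Other cDNA matches rose as well, and some of them share a match. Both ncRNA_aligned_7971 and ncRNA_aligned_11744, which match AK089828, rose. The shorter, ncRNA_aligned_7971, had 28.8 and 74.7 CPM in UUO against 1.10 and 2.07 in anti-GBM (log2 5.01 ± 0.81, edgeR adjusted p = 0.0109). The longer, ncRNA_aligned_11744, had 61.1 and 139.5 against 6.47 and 14.6 (log2 3.25 ± 0.63, edgeR adjusted p = 0.0394). Another transcript of this match, ncRNA_aligned_4495, was the most abundant, at 942 and 3596 CPM against 198 and 386, and did not pass (log2 2.96, edgeR adjusted p = 0.356). Transcripts of 1 match may share reads, so they are not independent cases.

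ncRNA_aligned_3314, which matches AK089314, had 80.3 and 171 CPM in UUO, 9.52 and 13.5 in anti-GBM, and 5.34 and 1.52 in WT normal. Its log2 fold change between the models was 3.45 ± 0.65 (edgeR adjusted p = 0.0302), and both injuries lay above normal. ncRNA_aligned_3312 and ncRNA_aligned_3313 share this match and had log2 fold changes of 3.59 and 3.45, neither past the threshold (edgeR adjusted p of 0.239 and 0.513). ncRNA_aligned_7047, matching M11135, had 362 and 241 CPM in UUO against 33.3 and 31.2 in anti-GBM (log2 3.23 ± 0.54, edgeR adjusted p = 0.0137). Its partner on the same match, ncRNA_aligned_7046, had a log2 fold change of 2.95 and missed the threshold (edgeR adjusted p = 0.0696).

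The remaining cDNA matches that rose ranged from 2.64 to 4.09 on the log2 scale. ncRNA_aligned_4494 (AK156533), only 255 bases long, had 27.7 and 88.6 CPM in UUO and 2.32 and 4.47 in anti-GBM. ncRNA_aligned_3059 (AK151137) had 93.6 and 59.5 in UUO and 9.03 and 9.04 in anti-GBM. For both, the UUO libraries lay above the anti-GBM libraries, but reads covered only 9.86% and 23.6% of ncRNA_aligned_3059 in UUO, so its count comes from a small stretch.

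More abundant transcripts complete this group. ncRNA_aligned_1883 (AK169930) had 551 and 649 CPM in UUO, 91.4 and 77.9 in anti-GBM, and 29.1 and 24.1 in WT normal. ncRNA_aligned_1409 (AK083502), 10069 bases long, had 1220 and 650.2 in UUO, 163 and 121 in anti-GBM, and 162 and 137 in WT normal. ncRNA_aligned_2984 (AK032822) had 528 and 260.2 in UUO, 63.3 and 62.6 in anti-GBM, and 113 and 91.7 in WT normal. In the first the anti-GBM libraries lay above normal, in the second they overlapped it, and in the third they lay below it. Their log2 fold changes between the models were 2.82, 2.72 and 2.64 (edgeR adjusted p of 0.0206, 0.0206 and 0.0332).

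Beyond cDNA matches, the transcripts that rose in UUO included 1 each of an mRNA element, a repeat and a conserved structure. ncRNA_aligned_2317 matches a selenocysteine insertion sequence, the stem-loop that lets a ribosome read UGA as selenocysteine; it had 112 and 219 CPM in UUO, 12.7 and 4.14 in anti-GBM, and 3.42 and 2.17 in WT normal (UUO over anti-GBM log2 4.30 ± 0.75, edgeR adjusted p = 0.0206). ncRNA_aligned_6819 matches the B2 short interspersed repeat, whose RNA in mouse is made by RNA polymerase III and accumulates under cell stress. The transcript is 3101 bases long, so its count measures the long RNA that holds the match and not B2 RNA alone. It had 46.0 and 115 CPM against 5.73 and 5.88 (log2 3.79 ± 0.69, edgeR adjusted p = 0.0247). ncRNA_aligned_5773, a region of conserved structure by EvoFold, had 148 and 62.5 CPM against 11.2 and 5.01 (log2 3.69 ± 0.74, edgeR adjusted p = 0.0470). In all of them the groups were well apart, but reads covered only 3.99% and 8.22% of ncRNA_aligned_5773 in UUO.

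Of the predicted transcripts, ncRNA_predict_3665 had 88.5 and 163 CPM in UUO against 11.7 and 16.0 in anti-GBM (log2 3.18 ± 0.58, edgeR adjusted p = 0.0247). ncRNA_predict_13069 had 112 and 156 reads in the UUO libraries and 0 in both anti-GBM libraries. Against a floor of 3 counts over the anti-GBM group, it was at least 86.2-fold higher in UUO (edgeR adjusted p = 0.0404). Outside WT UUO no library had more than the 13 reads of KO UUO 1. It thus passed the filter on low counts only through the WT UUO libraries, so its p is no separate support. The call was lost without any 1 of the WT libraries. More widely, of all 42452 transcripts, 72 had 10 or more reads in both UUO libraries and none in either anti-GBM library, and 24 had the reverse. These are unscaled reads, and the libraries differ in depth and breadth.

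Of the 9 transcripts that fell in UUO relative to anti-GBM, 5 had a mean above WT normal in anti-GBM and below it in UUO, and 4 had both means below normal. The first set holds RNA of retroviral origin. ncRNA_aligned_8234 matches the core encapsidation signal of gammaretroviruses, the stretch by which the viral genomic RNA is packed into particles and which endogenous copies in the mouse genome also carry. Its CPM was 91.9 and 188 in UUO, 1513 and 773 in anti-GBM, and 366 and 372 in WT normal. The anti-GBM libraries were the highest and the UUO libraries the lowest of the 6 WT libraries, with a log2 fold change between the models of -3.03 ± 0.49 (edgeR adjusted p = 0.0109). The comparison of each model with normal did not pass (log2 -1.40 and edgeR adjusted p = 0.124 in UUO; log2 1.63 and edgeR adjusted p = 0.301 in anti-GBM). Near-identical copies of such elements can share or lose reads in the authors' unique assignment, so the level of any 1 copy is uncertain. The other transcript with a match to this signal, ncRNA_aligned_8305, was low, at 5.81 and 2.94 CPM against 5.49 and 14.4, and overlapped between the models.

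The same order of groups was seen in 3 cDNA matches. ncRNA_aligned_4113 (AK133569) was the most abundant of the 24, with 441 and 1183 CPM in UUO, 8451 and 2805 in anti-GBM, and 2217 and 2128 in WT normal (log2 between the models -2.79 ± 0.50, edgeR adjusted p = 0.0302). ncRNA_aligned_10503 (AK037011) had 42.0 and 112 CPM against 689.6 and 279, between which WT normal lay at 189 and 171 (log2 -2.65 ± 0.51, edgeR adjusted p = 0.0386). ncRNA_aligned_1903 (AK086635) had 10.7 and 13.2 CPM against 129 and 50.5, with 25.7 and 27.3 in WT normal (log2 -2.91 ± 0.55, edgeR adjusted p = 0.0302). In each of these, and in ncRNA_aligned_8234, anti-GBM 1 was above anti-GBM 2, by 1.96 to 3.01 times. ncRNA_aligned_8284, which shares the match of ncRNA_aligned_10503, missed the threshold (log2 -2.53, edgeR adjusted p = 0.0696). Without the 3 libraries of low breadth ncRNA_aligned_4113 was no longer called (edgeR adjusted p = 0.107).

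Of the other transcripts that fell, the matched ones lay below normal in both models and lowest in UUO. ncRNA_aligned_4910, which matches the noncoding cDNA AK020541, was close to absent in UUO: 3 reads in each UUO library, or 0.447 and 0.252 CPM, against 24.3 and 12.3 CPM in anti-GBM and 62.6 and 95.6 in WT normal. Its log2 fold change between the models was -5.70 ± 0.75 (edgeR adjusted p = 0.00125), and the call held without each of the 12 libraries in turn, with edgeR adjusted p between 0.000117 and 0.0255, but not by voom with quality weights (adjusted p = 0.0872). ncRNA_aligned_3514 (AK044236) had 9.24 and 12.4 CPM in UUO, 113 and 136 in anti-GBM, and 327 and 377 in WT normal (log2 between the models -3.52 ± 0.56, edgeR adjusted p = 0.0109). These 2 transcripts thus stepped down from normal to anti-GBM to UUO, though their step from normal to anti-GBM did not pass (edgeR adjusted p of 0.277 and 0.492).

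ncRNA_aligned_2078, a mouse long noncoding RNA entry, had 21.0 and 15.4 CPM in UUO, 113 and 131 in anti-GBM, and 164 and 158 in WT normal. Its log2 fold change between the models was -2.74 ± 0.49 (edgeR adjusted p = 0.0206). The predicted transcripts ncRNA_predict_6143 and ncRNA_predict_7418 had log2 fold changes of -5.59 ± 0.82 and -3.70 ± 0.67 (edgeR adjusted p of 0.00417 and 0.0247). The anti-GBM libraries of ncRNA_predict_6143 were far apart, at 84.6 and 15.7 CPM, on either side of WT normal at 34.0 and 27.8, against 0.745 and 1.26 in UUO.

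**Figure D2:**
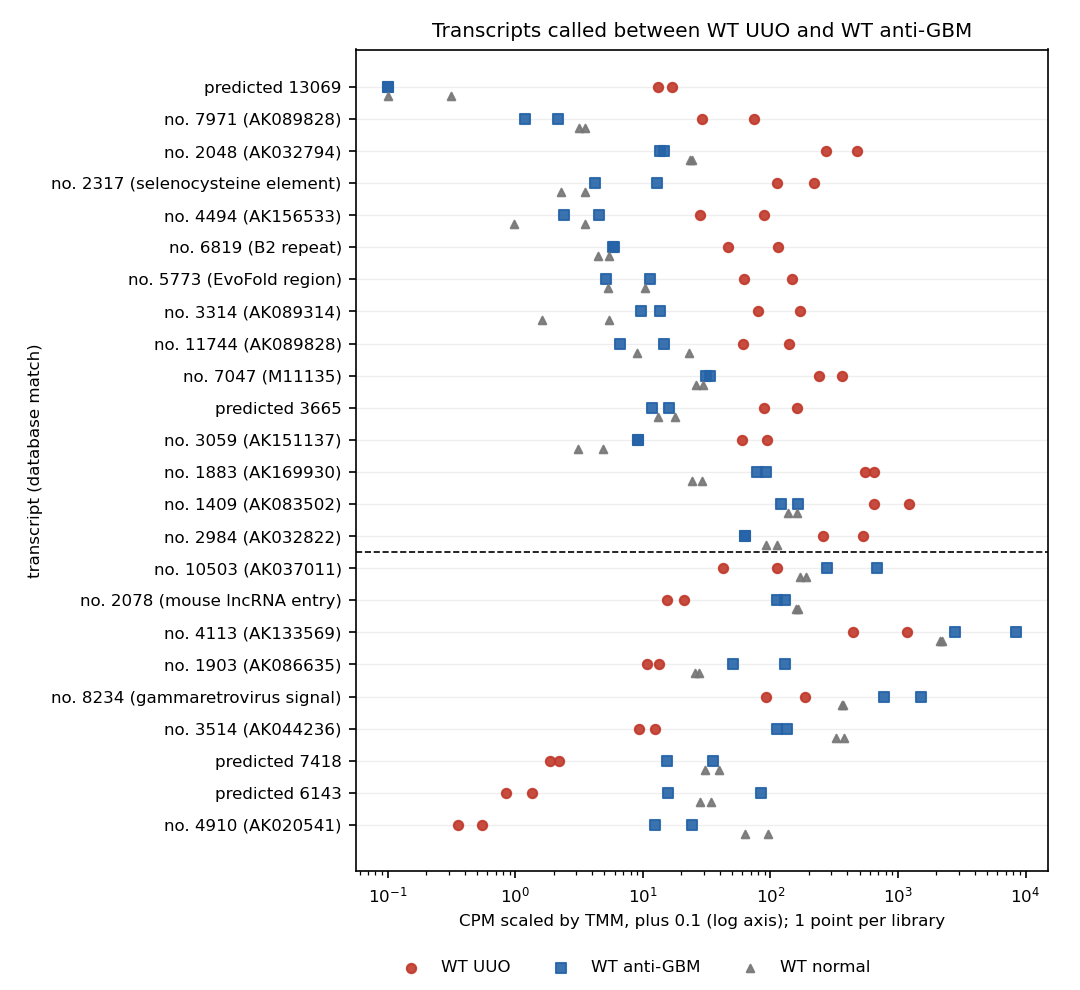
The 24 called transcripts, ordered by log2 fold change, with 1 point per library for WT UUO (red circles), WT anti-GBM (blue squares) and WT normal (grey triangles); the x axis is CPM plus 0.1 on a log axis. Above the dashed line are the 15 that were higher in UUO, below it the 9 that were lower; the UUO and anti-GBM libraries overlap in none of them.

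Set beside normal kidney, the transcripts called between the models were mostly ones on which obstruction lay further from normal. WT UUO against WT normal gave 600 calls (2.42% of the transcripts tested, 0.681% higher and 1.74% lower), and WT anti-GBM against WT normal gave 5 (0.0201%, 0.00806% higher and 0.0121% lower). These contrasts share the injury libraries with the contrast between the models, so they are not separate evidence. All 15 that were higher were called in UUO against normal, and 0 were called in anti-GBM against normal. Of the 9 that were lower, 5 were called in UUO against normal and 0 in anti-GBM against normal. On the log2 scale UUO lay further from normal than anti-GBM for all 15 of the higher and for 6 of the 9 lower transcripts.

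The Smad3 KO mice give the same contrast in separate animals. Both contrasts take the spread of each transcript from the same fit of all 12 libraries. The KO p-values of transcripts called in WT are therefore not independent of those calls. All 15 transcripts higher in WT UUO had a log2 fold change of the same sign in KO, where 66.2% of all transcripts higher in WT did. The KO UUO libraries lay above both KO anti-GBM libraries for 14 of the 15, against 22.2% of all transcripts tested. For 11 of the 15 the KO contrast had an unadjusted p under 0.05, against 8.57% of all transcripts on that side, and for 0 an edgeR adjusted p under 0.05. The 22.2% and 8.57%, unlike the 66.2%, take no account of the WT direction. Only 4193 of the 24816 transcripts behind these shares averaged at least 10 CPM, so they are no matched background. The median log2 fold change of the 15 was 3.45 in WT and 1.72 in KO.

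Of the 9 lower transcripts, 8 had the same sign in KO, where 45.6% of all transcripts lower in WT did. Their KO libraries did not overlap in the WT direction for 6, against 11.4% of all transcripts tested, and for 6 the KO contrast had an unadjusted p under 0.05 in that direction, against 4.5%. The 11.4% and 4.5% likewise take no account of the WT direction. The median log2 fold change of the 9 was -3.03 in WT and -1.63 in KO. The fold change was smaller in KO than in WT for all 24, but the transcripts were chosen on their WT values, so this says nothing about the genotypes. Over all transcripts tested the WT and KO fold changes correlated weakly (Pearson's r = 0.174 across transcripts, which are not independent replicates; 0.355 over the 4193 that averaged at least 10 CPM). Their signs were equal for 55.8%.

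**Figure D3:**
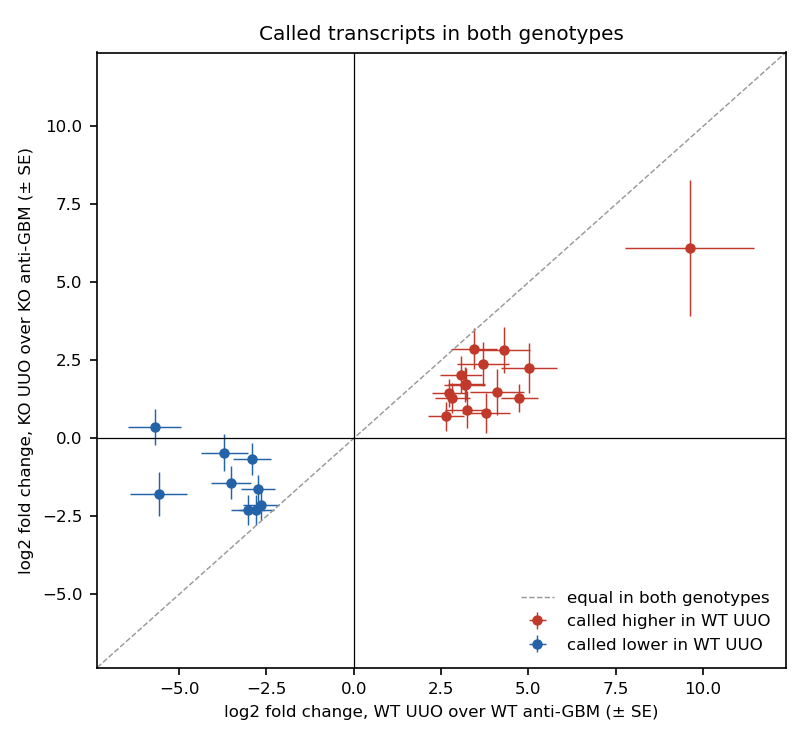
Log2 fold change of UUO over anti-GBM in WT (x axis) and in Smad3 KO (y axis) for the 24 called transcripts, with SE bars from edgeR; the dashed line marks equal values. All 15 red points lie above 0 on both axes, and 8 of the 9 blue points lie below 0 on both.

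The KO contrast itself gave 6 calls (0.0242%), 1 higher and 5 lower, and a test of the difference between the genotypes gave 1 (0.00403%), ncRNA_aligned_4910. The gammaretroviral ncRNA_aligned_8234 had the same order of the models in KO as in WT, with 335 and 271 CPM in KO UUO and 1798 and 1175 in KO anti-GBM (log2 -2.29, edgeR adjusted p = 0.0988). Its level in KO normal, 48.1 and 109 CPM, was below both KO models, whereas WT normal lay between the WT models. ncRNA_aligned_4113 likewise had 1473 and 1529 CPM in KO UUO and 6086 and 8647 in KO anti-GBM (log2 -2.30, edgeR adjusted p = 0.106). For ncRNA_aligned_2048 the KO libraries had 54.9 and 59.7 CPM in UUO and 21.6 and 25.2 in anti-GBM, a log2 fold change of 1.29 against 4.75 in WT. That difference of 3.46 between genotypes did not pass after adjustment (edgeR unadjusted p = 2.05e-05, adjusted p = 0.106).

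Selenoprotein mRNAs as a class pointed the other way from ncRNA_aligned_2317. Selenoproteins, among them glutathione peroxidases and thioredoxin reductases, use selenocysteine to reduce peroxides and thiols, and kidney tubules are a main source of a secreted one. Of 17 transcripts that match a selenocysteine insertion sequence, 12 passed the filter on low counts, and 11 of these 12 had a negative log2 fold change in WT. In 8 of the 12 both UUO libraries lay below both anti-GBM libraries, against 20.6% of all transcripts tested, and 7 had an unadjusted p under 0.05 on that side, against 2.78%. None of those 7 passed the threshold in the fit of all 12 libraries by edgeR; with WT libraries alone ncRNA_aligned_2294 and ncRNA_aligned_802 did (edgeR adjusted p of 0.0348 and 0.0264). The class median was -1.17 against -0.01 over all transcripts.

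ncRNA_aligned_2294 had 512 and 924 CPM in UUO, 2523 and 2146 in anti-GBM (log2 -1.70, edgeR adjusted p = 0.246). ncRNA_aligned_5109 had 207 and 530.4 CPM in UUO and 1092 and 1269 in anti-GBM (log2 -1.68, edgeR adjusted p = 0.579). ncRNA_aligned_802 had 5.36 and 4.62 in UUO, 31.1 and 19.9 in anti-GBM, and 157 and 118 in WT normal (log2 between the models -2.35, edgeR adjusted p = 0.701). In all 3 the groups did not overlap, and 11 of the 12 had means below WT normal in both models, ncRNA_aligned_2317 being the exception.

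In KO, 10 of the 12 had a negative log2 fold change, 7 with an unadjusted p under 0.05 against 4.5% of all transcripts, and the class median was -1.39 against 0.43 over all transcripts. ncRNA_aligned_922 and ncRNA_aligned_3688 share a match (AF195142) and may share reads, and the labels and tables do not say which selenoprotein gene each transcript belongs to. ncRNA_aligned_2317 was higher in UUO in both genotypes, with 16.0 and 33.6 CPM in KO UUO against 2.58 and 4.33 in KO anti-GBM (log2 2.82, edgeR adjusted p = 0.135).

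**Figure D4:**
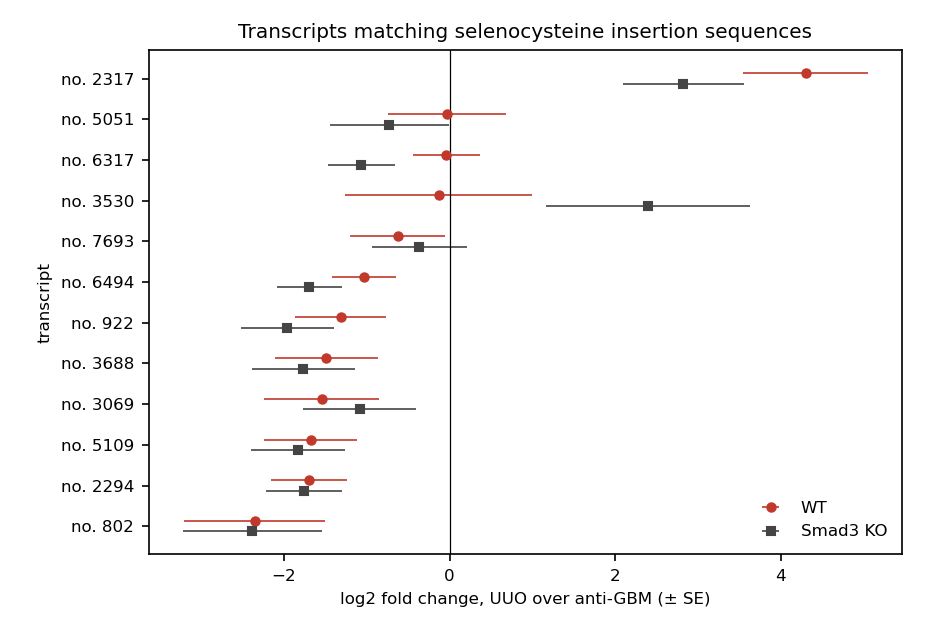
Log2 fold change of UUO over anti-GBM with SE for the 12 tested transcripts that match a selenocysteine insertion sequence, in WT (red circles) and Smad3 KO (grey squares). In WT 11 of the 12 lie below 0; ncRNA_aligned_2317 at 4.30 is the exception, and ncRNA_aligned_3530 changes side between the genotypes.

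Elements of single mRNAs gave several differences that missed the threshold. The renin mRNA carries a stability element in its untranslated region; renin, made by the juxtaglomerular cells of the afferent arteriole, starts the angiotensin cascade that raises blood pressure. ncRNA_aligned_2307, which matches that element, had 83.6 and 126 CPM in WT UUO and 5.12 and 20.6 in WT anti-GBM, against 220.4 and 144 in WT normal. The anti-GBM libraries were the lowest of the 12, and the log2 fold change of UUO over anti-GBM was 3.03 ± 0.73 (edgeR adjusted p = 0.239; DESeq2 adjusted p = 0.00341). In KO the order was the opposite, with 311 and 379.6 CPM in UUO and 562 and 1238 in anti-GBM (log2 -1.38, edgeR adjusted p = 0.402). The difference between the genotypes, 4.41 on the log2 scale, had an unadjusted p of 0.000632 and an edgeR adjusted p of 0.473. Renin, Ren1 in the mouse, lies on chromosome 1 at chr1:135247087-135256902 of the NCBIM37 (mm9) annotation, plus strand.

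The transcript with the Spi1 element, ncRNA_aligned_3717, had 44.8 and 50.7 CPM in UUO, 11.5 and 11.4 in anti-GBM, and 3.42 and 3.47 in WT normal. Spi1 encodes PU.1, the transcription factor of macrophages and other myeloid cells. The groups stepped up from normal to anti-GBM to UUO without overlap, with a log2 fold change between the models of 2.06 ± 0.82 (edgeR adjusted p = 0.732), and of 3.79 in UUO against normal (edgeR adjusted p = 0.0250). In KO the values were 13.4 and 16.6 in UUO and 8.76 and 7.09 in anti-GBM.

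The vimentin element, in the mRNA of the intermediate filament of mesenchymal and injured tubular cells, was counted in ncRNA_aligned_976 at 347 and 634 CPM in UUO and 268 and 196 in anti-GBM (log2 1.08 ± 0.49, edgeR adjusted p = 0.841). Without the low-breadth libraries, which left the UUO library at 634 CPM alone in its group, the log2 fold change was 1.43. In KO the vimentin element was at 198 and 497 CPM in UUO and 439 and 883 in anti-GBM, and the difference between genotypes had an unadjusted edgeR p of 0.00832 and an adjusted p of 0.590.

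The element of the mRNA of G-CSF, the growth factor that drives neutrophil production, was counted in ncRNA_aligned_11387. It had 1.79 and 7.89 CPM in WT UUO and 0 in the other 10 libraries, and did not pass (edgeR adjusted p = 0.446). Having no reads elsewhere, it passed the filter on low counts only through WT UUO, so none of its tests is separate support. Without the low-breadth libraries WT UUO 2 alone stood for the group (log2 fold change 8.69). The Ctgf element, from the mRNA of a matrix-associated growth factor of fibrosis, had 189 and 235 CPM in UUO and 306 and 176 in anti-GBM, which overlapped. The c-myc element had 82.5 and 68.3 against 161 and 22.7, which also overlapped. Over the 23 tested transcripts of this class other than selenocysteine and retroviral elements, edgeR's fit of the 12 libraries called 0. In that fit 5 had an unadjusted p under 0.05 with a higher level in UUO and 0 with a lower one, against 3% and 2.78% of all transcripts. The G-CSF element, tested only through its WT UUO counts, was 1 of these 5. The renin element was called by DESeq2, as given above, and with WT libraries alone (edgeR adjusted p = 0.0223). It was not called by voom (adjusted p = 0.444) or with breadth as a covariate (edgeR adjusted p = 0.237). Voom called the G-CSF element (adjusted p = 0.00228). The G-CSF element did not pass with breadth as a covariate or with WT libraries alone (edgeR adjusted p of 0.0909 and 0.0578).

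**Figure D5:**
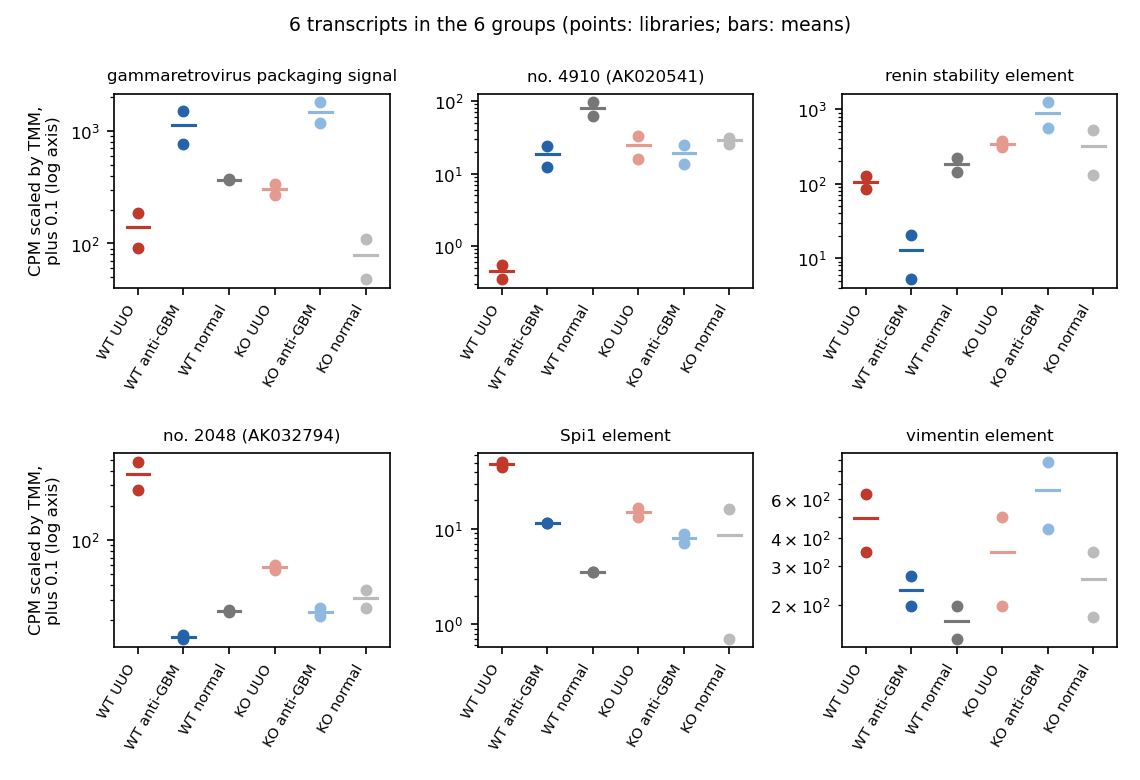
CPM plus 0.1 (log axes) of 6 transcripts in the 6 groups of the series, with 1 point per library and a bar at the mean of 2 libraries. The gammaretrovirus signal is highest in anti-GBM in both genotypes, ncRNA_aligned_4910 is low only in the WT UUO libraries, and the renin element is lowest in WT anti-GBM.

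The long noncoding RNA Neat1, the scaffold of nuclear paraspeckles, was abundant in both models. ncRNA_aligned_3989, which matches its long isoform, had 215 and 536 CPM in UUO, 543 and 1551 in anti-GBM, and 81.5 and 160.2 in WT normal. The libraries of both models lay above normal and almost met each other, and the log2 fold change between the models, -1.48 ± 0.73, did not pass (edgeR adjusted p = 0.898). The lincRNA 2610035D17Rik, in ncRNA_aligned_3734, had 14.0 and 4.37 CPM in UUO and 0.732 and 0.871 in anti-GBM, against 21.4 and 14.7 in WT normal (log2 between the models 3.48 ± 0.95, edgeR adjusted p = 0.252). The transcript of the Mir155 host locus, whose microRNA is induced in activated leukocytes, had 1.04 and 8.90 CPM against 1.34 and 1.96, which overlapped.

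No microRNA precursor was called by edgeR in the fit of the 12 libraries. Of 61 tested transcripts that match one, 2 had an unadjusted edgeR p under 0.05 with a higher and 3 with a lower level in UUO, close to the 3% and 2.78% of all transcripts. These transcripts are far longer than a precursor hairpin, and RNA under 150 bases was removed before sequencing, so they measure host or primary transcripts and not mature microRNAs. The transcripts of mir-702, mir-125b-1 and mir-135a-1 are described here with the mature microRNAs they would yield, in RefSeq's sequences on GRCm38.p6; the capitals mark the seed, bases 2 to 8, and none of these share one.
miR-702-5p: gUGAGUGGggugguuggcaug
miR-702-3p: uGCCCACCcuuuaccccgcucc
miR-125b-5p: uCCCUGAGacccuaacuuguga
miR-135a-5p: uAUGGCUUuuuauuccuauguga

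The mir-702 transcript, ncRNA_aligned_1780, had 208 and 149.5 CPM in UUO and 90.05 and 72.3 in anti-GBM, on either side of WT normal at 132 and 129.7 (log2 between the models 1.14 ± 0.43, edgeR adjusted p = 0.676). The mir-125b-1 transcript, ncRNA_aligned_7905, had 20.4 and 14.9 CPM in UUO and 4.76 and 5.34 in anti-GBM, the latter near WT normal at 4.28 and 2.60 (log2 between the models 1.80 ± 0.81, edgeR adjusted p = 0.833). The mir-135a-1 transcript, ncRNA_aligned_6360, fell from 578 and 599 CPM in WT normal to 98.2 and 51.5 in UUO (log2 -2.98, edgeR adjusted p = 0.000765). It was at 113 and 134 CPM in anti-GBM, where the comparison with normal did not pass (log2 -2.25, edgeR adjusted p = 0.0645), nor did that between the models (log2 -0.72, edgeR adjusted p = 0.947). The precursors of mir-200b, a microRNA of epithelial cells, and of mir-30b had log2 fold changes of -0.11 and -0.18 between the models. ncRNA_aligned_3500, another precursor match, had 28.6 and 17.5 CPM in UUO and 83.3 and 76.7 in anti-GBM, against 148 and 153 in WT normal (log2 between the models -1.80, edgeR adjusted p = 0.252). It was called by DESeq2 (adjusted p = 0.0461), but not by voom (adjusted p = 0.181) or with breadth as a covariate (edgeR adjusted p = 0.0684). Without the low-breadth libraries, which left WT UUO 2 alone in its group, its log2 fold change was -2.21.

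Transcripts that match repeats showed no common direction. Of 58 tested transcripts that match B1 or B2 repeats, 28 were above 0 and 30 below, with a median log2 fold change of -0.15; 13 did not overlap upward (22.4%) and 13 downward (22.4%), near the 20% and 20.6% of all transcripts. The more abundant ones went both ways. The highest, ncRNA_aligned_7130, had 198 and 507 CPM in UUO and 337 and 809 in anti-GBM, which overlapped, and ncRNA_aligned_6101 had 62.7 and 178 in UUO against 329 and 284 in anti-GBM (log2 -1.34 ± 0.76, edgeR adjusted p = 0.947). ncRNA_aligned_3487 had 326 and 318 CPM in UUO against 114 and 66.4 in anti-GBM (log2 1.84 ± 0.47, edgeR adjusted p = 0.177). ncRNA_aligned_90 had 156 and 262 against 97.5 and 55.7 (log2 1.45 ± 0.49, edgeR adjusted p = 0.514). In both the groups were apart. ncRNA_aligned_3487 passed by DESeq2 (adjusted p = 0.00849), by voom (adjusted p = 0.0273) and with WT libraries alone (edgeR adjusted p = 0.0454). Without the low-breadth libraries, which left WT UUO 2 alone in its group, its log2 fold change was 1.81.

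Most of the larger classes had a median near that of all transcripts. The median log2 fold change was -0.09 for 1341 EvoFold regions and -0.09 for 445 RNAz regions, -0.05 for 3527 cDNAs described as noncoding, and 0.06 for 16781 predicted transcripts. Several long noncoding RNA classes lay lower, but a downward lean was common to most matched classes. Of 560 mouse long noncoding RNA entries, with a median of -0.31, 33.2% did not overlap downward and 12.7% upward, against 20.6% and 20% of all. For 134 mouse lincRNA entries the shares were 32.1% and 7.46% (median -0.31), for 68 Ensembl lincRNAs 30.9% and 13.2% (median -0.35), and for 1436 cDNAs with no description 29.2% and 13.9% (median -0.14). Relative to library size alone, with no scaling for composition, the median of all transcripts was 0.31 and that of the mouse long noncoding RNA entries 0.020.

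Some transcripts differed in the same direction in both genotypes without being called. They were picked for this agreement, so it is not a result. ncRNA_aligned_5170 (AK030791) had 16.1 and 28.5 CPM in WT UUO and 1.34 and 2.61 in WT anti-GBM, and 5.85 and 9.70 against 0 and 0.394 in KO. ncRNA_aligned_5197 (AK135044) had 20.3 and 28.3 against 2.44 and 2.94 in WT, and 7.45 and 21.8 against 0.773 and 3.74 in KO. On the lower side, ncRNA_aligned_10259 (AK152291) had 153 and 678 CPM in WT UUO and 4045 and 2754 in WT anti-GBM, and 400.2 and 1120.1 against 4217 and 3526 in KO. ncRNA_aligned_3502 (AK042638) had 62.4 and 72.5 against 495 and 510.4 in WT, from 2565 and 2394 in WT normal, and 92.8 and 232.9 against 378 and 1759 in KO. Their WT log2 fold changes were 3.48, 3.16, -3.03 and -2.90 (edgeR adjusted p of 0.239, 0.239, 0.379 and 0.397).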

How the data were processed

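Kidney RNA over 150 bases was sequenced after removal of ribosomal RNA, per the labels' protocols, with Bowtie 0.12.7 and the mm9 build named in the submitters' processing notes; how transcripts were predicted, how reads were assigned and whether strand was used is not given in the sources used here. Overlapping and antisense transcripts therefore cannot be told apart. The deposited tables give, per the file headers, the count of uniquely assigned reads, the length, the percent of length covered (per the file headers), a mean depth (the deposited coverage signal) and RPKM, which the authors computed from the counts, lengths and table totals (largest relative deviation 5.07e-15). A transcript not listed was taken as 0. Coordinates and gene names are not paired with the running numbers; names come from the match text.

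The test of the counts was that of edgeR 4.0.16, run in R 4.3.3 (scaling by TMM, filterByExpr by group, robust quasi-likelihood F test, 1 mean per group over the 12 libraries, 24816 of 42452 transcripts kept). A Benjamini-Hochberg adjusted p under 0.05 was called; all p-values are two-sided. CPM values are scaled by TMM, log2 fold changes carry the standard error implied by the F statistic, and floors use 3 counts over a group and cover counting error only. Breadth sets the length that reads cover against what reads of 90 bases placed at random would cover, as a median over transcripts of more than 500 bases that had 20 to 200 reads. The code was tested on simulated data with known changes in the WT UUO group. There edgeR recovered 1 of 40 changes of 1 log2 unit, 7 of 80 of 2 units and 59 of 80 of 4 units. It also called 22 unchanged transcripts. There smaller differences were thus mostly missed, and the share of false calls was above the 0.05 that the threshold allows. The groups compared, the transcripts and the class lists were chosen with earlier results of these data known. The text names all calls between the WT models, elements of known RNAs, in large classes only those with an unadjusted p under 0.05, abundant transcripts and those with matching direction in both genotypes. Replicates are separate libraries; the labels do not say that each is 1 mouse, so p-values measure the spread between libraries. Alternatives were other scaling and filters, DESeq2 1.42.0, limma 3.58.1 (voom with quality weights, and log2 of RPKM plus 0.1), fewer groups, breadth as a covariate and leaving out libraries. miRNA sequences are RefSeq's, on GRCm38.p6.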

Additional observations from a re-analysis of the deposited data

Results flagged for a closer look

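ncRNA_aligned_4910 (AK020541) was singled out because its difference between the models itself differed between the genotypes. In WT it had 0.447 and 0.252 CPM in UUO and 24.3 and 12.3 in anti-GBM. In KO it had 15.9 and 33.1 CPM in UUO and 13.7 and 24.6 in anti-GBM, and these overlapped. The log2 fold change of UUO over anti-GBM was -5.70 in WT and 0.35 in KO, a difference of -6.05 by edgeR's test of the interaction (adjusted p = 0.0308). Without each library in turn the edgeR adjusted p ran from 0.00176 to 0.161 and was under the threshold in 3 of the 12 fits, those without WT anti-GBM 2, KO UUO 1 or KO UUO 2. With voom it was 0.974 and with DESeq2 9.90e-06.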

How the results depend on the processing

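No paired analysis was possible because the labels pair no libraries: the replicate numbers only follow the order of the samples within a group. The 15 higher and 9 lower calls between the WT models became 28 and 14 with DESeq2's size factors, 48 and 11 with library size alone, 68 and 95 without a filter, 122 and 92 by the DESeq2 test, 157 and 11 by voom, 43 and 4 by limma on log2 RPKM, 33 and 10 with the contrast's groups alone, 88 and 55 with WT libraries alone, 166 and 154 without the libraries of low breadth, and 83 and 80 with breadth as a covariate; leaving out single libraries gave 1 to 44 higher and 1 to 36 lower. All 24 kept their sign in every one of the 24 alternatives. Among those that leave out no single library, the calls were lost most often by limma on log2 RPKM, which kept 8 of the 24, and by the fit of the contrast's groups alone, which kept 17.

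The 6 KO calls became 177 with library size alone, 218 without a filter, 454 by DESeq2, 1 by voom, 13 by limma on log2 RPKM, 30 with the contrast's groups alone, 45 with KO libraries alone, 677 without the libraries of low breadth and 787 with breadth as a covariate, and 0 to 91 without single libraries. The 1 call of the genotype difference became 4 with DESeq2's size factors, 3 with library size alone, 56 without a filter, 57 by DESeq2, 101 without the libraries of low breadth, 36 with breadth as a covariate, 0 to 4 without single libraries, and 0 under the stricter filter, by voom, by limma on log2 RPKM and with the contrast's groups alone. In edgeR's own fit 1848 transcripts had an unadjusted p under 0.05 for it.

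Transcripts that were not called and changed sign lay mostly near 0. With library size alone the log2 fold change was 0.17 for ncRNA_aligned_6524 (Ctgf element), 0.13 for ncRNA_aligned_667 (mir-30b), 0.11 for ncRNA_aligned_683 (c-myc element), 0.20 for ncRNA_aligned_7267 (mir-200b) and 0.030 for ncRNA_aligned_6514, and by limma on log2 RPKM it was 0.17, 0.14, 0.62, 0.19 and 0.019. Without the libraries of low breadth, which left WT UUO 2 alone in its group, it was -1.03 for ncRNA_aligned_6544 (RNase MRP RNA) and -1.74 for ncRNA_aligned_7824. With breadth as a covariate it was -0.64 and -1.09, with 0.49 for ncRNA_aligned_667. By voom it was 0.31 for ncRNA_aligned_683 and -0.036 for ncRNA_aligned_7824. Leaving out single libraries gave -0.51 to 0.21 for ncRNA_aligned_6524, -1.03 to 1.72 for ncRNA_aligned_6544, -0.39 to 0.017 for ncRNA_aligned_667, -1.08 to 1.67 for ncRNA_aligned_683, -0.26 to 0.00052 for ncRNA_aligned_7267, -0.68 to 2.39 for ncRNA_aligned_8024 (Mir155 locus), -1.74 to 1.68 for ncRNA_aligned_7824 and -0.25 to 0.65 for ncRNA_aligned_2245. The cause was not tested. A lone library left in a group is assumed to vary like the other groups; both the 2 libraries a group and the depth limit the precision.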

Other observations

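Some of the most abundant RNAs differed more between the UUO libraries than between the models. The RNase MRP RNA transcript (ncRNA_aligned_6544), part of the enzyme that processes ribosomal RNA precursors, had 32527 and 4824 CPM in WT UUO and 9518 and 9939 in WT anti-GBM, and ncRNA_aligned_7824, a mouse long noncoding RNA entry, had 16.5% of the reads of WT UUO 1 and 1.70% of those of WT UUO 2, against 4.34% and 4.27% in anti-GBM. In both, WT UUO 1, the library of low breadth, was the highest of the 4. By contrast, the small nuclear RNA match ncRNA_aligned_2507 had 16339 and 6053 CPM in WT UUO and 49683 and 25650 in WT anti-GBM, and 15285 and 13993 against 36530 and 95870 in KO, with no overlap in either genotype (WT log2 -1.75, edgeR adjusted p = 0.434; KO log2 -2.18, edgeR adjusted p = 0.144). Without the low-breadth libraries, which left WT UUO 2 alone in its group, the WT log2 fold change was -2.65. Small nucleolar and Cajal body RNAs, which guide chemical changes of ribosomal and spliceosomal RNA, gave 0 calls among 108 tested by edgeR, with 2 higher and 6 lower in UUO at an unadjusted p under 0.05, against 3% and 2.78% of all transcripts, and a median log2 fold change of -0.22.

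The female-specific noncoding RNA Xist had 0 and 20 reads in the WT UUO libraries and 27 and 14 in the WT anti-GBM libraries. These were far below the 5040 of KO anti-GBM 2 and the 5636 of KO normal 2. KO anti-GBM 1 had 362 reads, and the KO UUO libraries had 4 and 6. The KO models thus also differed in Xist, and the sex of each animal is not given. The imprinted RNA H19 was at 1.49 and 1.26 CPM in WT UUO and 0.122 and 0.109 in WT anti-GBM, where it was not called (edgeR adjusted p = 0.982).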
